A study of Mus musculus with 42 samples.

Results

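Glucuronidation is one of the main routes by which the liver makes steroids, bile acids, bilirubin and drugs soluble enough to be excreted. UDP-glucuronosyltransferases (UGTs) are enzymes of the endoplasmic reticulum that transfer glucuronic acid from UDP-glucuronic acid to these molecules. The Ugt2 genes encode enzymes with steroids, bile acids and many drugs among their substrates, and hepatocytes are a main site of their expression. Ugt3a1 and Ugt3a2 encode related enzymes, and their human counterparts use sugar donors other than UDP-glucuronic acid.

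The 10 mouse genes Ugt2a3, Ugt2b1, Ugt2b5, Ugt2b34, Ugt2b35, Ugt2b36, Ugt2b37, Ugt2b38, Ugt3a1 and Ugt3a2 were chosen by name from the 54446 genes of the count table. Of the 10 genes, 9 had enough counts to be among the 15574 genes tested, and Ugt2b38 did not. Liver RNA was sequenced from 42 female APOE*3-Leiden mice with 1 library per mouse. All groups carried the human APOE*3-Leiden transgene, which makes the mice prone to hyperlipidemia, so no group was wild type. Mice on the Western-type diet (WTD, n = 16) were 8 to 14 weeks old at the start and received 15% cocoa butter, 40.5% sucrose and 1% cholesterol by weight, with a run-in of 3 weeks before week 0. The WTD+atorvastatin group (n = 16) received in addition atorvastatin, an inhibitor of HMG-CoA reductase, at 3.0 mg/kg/day and at 4.5 mg/kg/day after week 5. Both WTD groups also received 0.05% sodium cholate, a bile salt, from week 22. A group of 10 mice on maintenance chow was the healthy reference, and all mice were killed at week 32. The labels give the chow mice another name series (AZ) than the WTD-fed mice (Gen), and an effect tied to these series cannot be told apart from that of the diet.

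The libraries held 15661381 to 36224054 read pairs assigned to genes (median 19421089.5). Levels are given as CPM, counts brought to a common library size after TMM scaling. Expressed per kilobase (kb) of exon, they can be compared between genes. In each library the share of genes at 1 to 2 CPM in its own group that had no count at all was taken as a sign of library quality. This share reached 59.7%, and it exceeded 20% in 3 chow, 4 WTD and 1 WTD+atorvastatin libraries. Albumin (Alb), which defines hepatocytes, had between 35770 and 121500 CPM in the mice, and 11 of 12 hepatocyte markers were measurable. The remaining one, Trf, had no count in any chow mouse and at most 6 counts over all mice of a WTD-fed group. Whether its read pairs were lost in counting was not tested, so this does not show absent expression.

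Some mice stood apart. On the first principal component of 9414 other genes with a mean log2 CPM over 3, which held 41.9% of the variance, WTD mouse 15 lay nearer to the median of WTD+atorvastatin than to that of its own group. Likewise, 6 of the 16 WTD+atorvastatin mice (1, 2, 3, 4, 7 and 15) lay nearer to the WTD median. Whether the labels and the dosing of these mice hold was not tested, and every difference between the WTD-fed groups is given by the labels as they stand. Chow mouse 2 was far from all other mice on the second component (score -80.5, against scores between -19.7 and 13.7 in the others) and was the library with the 59.7% share. The values of these mice are given beside the results. No group of mice was left out for its values, and single mice were left out 1 at a time.

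The Ugt2 members form a cluster on chromosome 5 and the Ugt3 members a pair on chromosome 15, and no member overlaps another. Overlap with other annotated genes was not tested. In the GRCm38 annotation the 8 Ugt2 genes lie within 534 kb. From the left these are Ugt2b34 (chr5:86889767-86906937), Ugt2b1 (chr5:86916638-86926530), Ugt2b35 (chr5:87000860-87013275), Ugt2b36 (chr5:87065927-87092555), Ugt2b5 (chr5:87124960-87140318), Ugt2b37 (chr5:87240493-87254804), Ugt2a3 (chr5:87324972-87337195) and Ugt2b38 (chr5:87409942-87424203). Ugt2b35 is transcribed from the plus strand and the other 7 from the minus strand. Ugt3a1 (chr15:9276888-9315032) and Ugt3a2 (chr15:9335550-9370955) are both on the plus strand.

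Some members are so alike that read pairs could be lost between them. Their coding sequences are between 1569 and 1602 bases long. The coding sequence of Ugt2b5 was 97.0% identical to that of Ugt2b38 and 94.7% identical to that of Ugt2b37, and Ugt3a1 and Ugt3a2 were 93.2% identical. Ugt2b35 and Ugt2b36 shared 88.3%, whereas the lowest identity between a Ugt2 and a Ugt3 gene was 51.7%. Of all stretches of 100 bases in the Ugt2b5 transcript, 24.7% also occurred without mismatch in Ugt2b38 or Ugt2b37, and for Ugt2b38 this was 24.2%. For Ugt2b37 it was 1.1%, for Ugt2a3 and Ugt2b34 under 1% and for the remaining 5 members 0%. Read pairs that align to several places were not counted on any gene, so the levels of Ugt2b5 and Ugt2b38 can be too low, which was not tested.

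The promoter table of RefSeq (GRCm38.p6) held 9 of the 10 members, without Ugt3a2. The windows below show the 100 bases around the start of 4 closely related members, because they share the 6 letters in capitals while the levels range from the highest to the lowest of the family. The letters are AGGTCA, the half-site that nuclear receptors such as HNF4A bind. The last window is Ugt2b35 at its best match, without gaps, to the window of Ugt2b36, shown because this member did not pass the test in any comparison.

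Ugt2b5: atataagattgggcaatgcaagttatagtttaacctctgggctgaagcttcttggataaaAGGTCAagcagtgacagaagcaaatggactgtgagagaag
Ugt2b36: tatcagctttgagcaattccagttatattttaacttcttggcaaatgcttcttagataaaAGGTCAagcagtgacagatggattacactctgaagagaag
Ugt2b37: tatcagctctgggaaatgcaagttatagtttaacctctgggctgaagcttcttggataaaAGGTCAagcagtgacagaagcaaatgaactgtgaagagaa
Ugt2b38: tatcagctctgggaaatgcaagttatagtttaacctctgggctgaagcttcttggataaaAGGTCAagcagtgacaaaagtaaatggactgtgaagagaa
Ugt2b35: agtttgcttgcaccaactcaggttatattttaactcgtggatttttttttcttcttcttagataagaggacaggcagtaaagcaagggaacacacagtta

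These windows lie at chr5:87140323-87140422 (Ugt2b5), chr5:87092541-87092640 (Ugt2b36), chr5:87254788-87254887 (Ugt2b37), chr5:87424189-87424288 (Ugt2b38), all minus strand, and chr5:87000769-87000868 (Ugt2b35, plus strand). Of the 100 bases, 97 were identical between Ugt2b37 and Ugt2b38, 85 between Ugt2b5 and Ugt2b37 and 70 between Ugt2b5 and Ugt2b36. Ugt2b35 matched the other windows at 42 to 45 bases, and no alignment with gaps was made. In full 300-base promoters (250 before and 50 after the start), AGGTCA on either strand was present in 5 of the 9 members and in 16.3% of 32851 promoters. In Ugt2b35 it lies 215 bases before the start, outside the window, and in the 4 relatives 22 to 39 bases before it.

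The letters of the TATA box, TATAAA, were found in 1 of the 9 members (all promoters 13.6%). This was Ugt3a1, where they lie 8 bases before the start. GCGTG, the core of the site bound by the aryl hydrocarbon receptor, was found in 0 (all promoters 32.4%). A match of letters is a description and does not show that a factor binds there.

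Per kb of exon, Ugt2b5 and Ugt2b36 led the family in all 3 groups, and Ugt2b37 and Ugt2b38 were at its lower end. In chow mice Ugt2b5 had a median of 320 CPM per kb (252 to 383) and Ugt2b36 of 301 (245 to 349). Ugt2b5 was the higher one in 7 of 10 chow mice, so the order of this pair was not settled by these mice. Next came Ugt3a2 with 116 and Ugt2a3 with 114 CPM per kb, whose order also differed between mice, as Ugt3a2 was higher in 6 of 10. Ugt2b34 (84.7 CPM per kb) and Ugt2b1 (83.0) were likewise not apart, whereas Ugt2b35 (37.4) stood below both in level and Ugt3a1 (18.1) below Ugt2b35 in each chow mouse. Ugt2b37 reached a median of 2.30 CPM per kb and Ugt2b38 of 0.129. The middle of the order differed on WTD, where Ugt2b34 (63.5 CPM per kb) was followed by Ugt3a2 (59.2), Ugt2a3 (50.9), Ugt2b35 (45.8) and Ugt2b1 (43.5). Of these neighbours, Ugt2b34 was above Ugt3a2 in 11 of 16 WTD mice and Ugt2b35 above Ugt2b1 in 10 of 16, so neither pair was apart. With atorvastatin Ugt3a2 (97.3 CPM per kb) and Ugt2a3 (90.02) again came before the others of this middle group, with overlapping ranges. These levels use the merged exon length, 3102 bases for Ugt3a2, 2670 for Ugt3a1 and 2059 for Ugt2b36. The longest transcripts of these genes have 2329, 2244 and 1888 bases. With the longest transcript as length they would stand higher. For Ugt2b34 the merged length and the longest transcript both have 4312 bases, but the transcript with its longest coding sequence has 3051. With that length Ugt2b34 would stand higher as well. The places of Ugt3a2, Ugt2b36 and Ugt2b34 in these orders, also on WTD, therefore depend on the length used. Together, Ugt2b5 and Ugt2b36 made up 56.5% to 59.2% of the summed CPM per kb of the family in chow mice, 54.0% to 60.5% in WTD mice and 53.3% to 57.6% in WTD+atorvastatin mice.

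**Figure D1:**
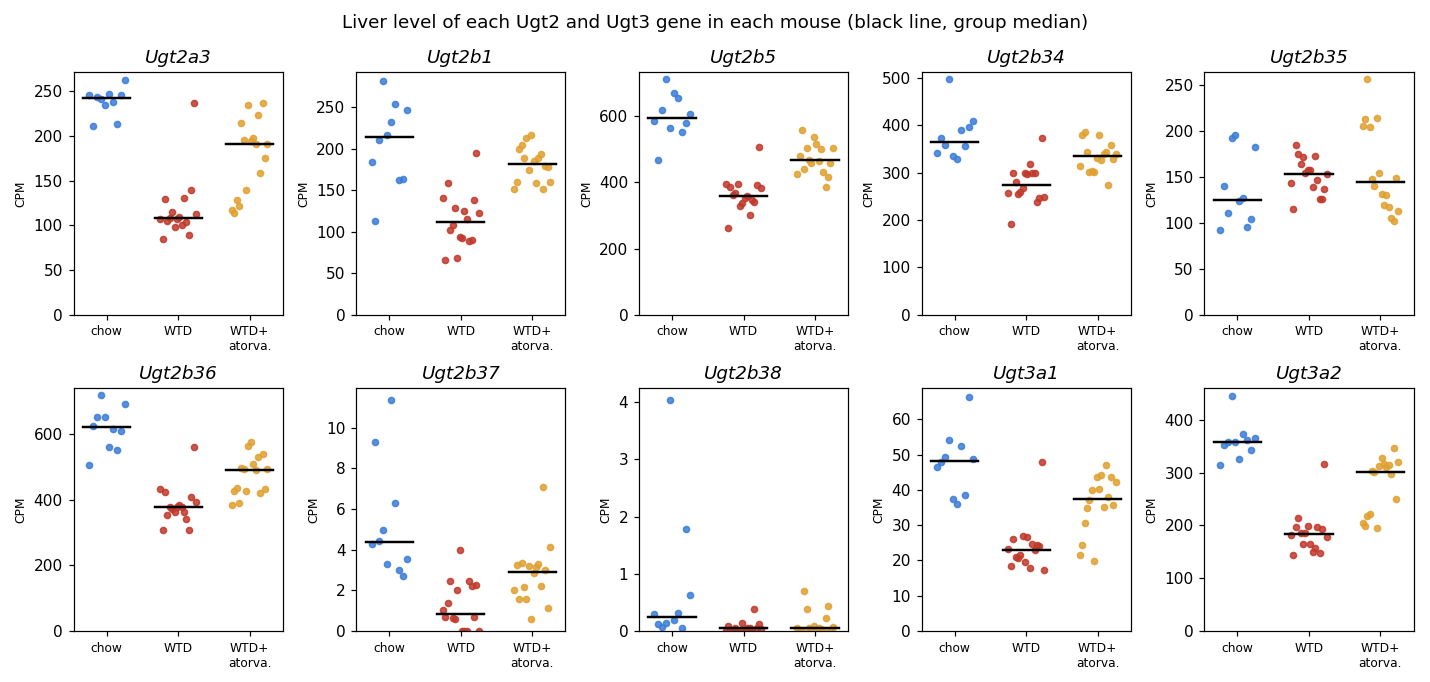
Each point is 1 mouse, the vertical axes give the level in CPM from 0 and differ between panels, and black lines are group medians (chow n = 10, WTD n = 16, WTD+atorvastatin n = 16). Sideways offsets only separate the points. The WTD points lie below the chow points for most members, with WTD mouse 15 as the single high WTD point in the panels of Ugt2a3, Ugt3a1 and Ugt3a2, whereas in the panel of Ugt2b35 the 3 groups overlap.

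The first comparison, WTD with chow, asks how the diet that induces steatohepatitis in this model goes along with the expression of the family. Of the 9 members tested, 8 were called, all of them lower on WTD, and only Ugt2b35 was not. Over all 15574 tested genes, 16.0% were called as lower in this comparison. The median log2 fold change of the 9 members was -0.85, beside 0.03 over all tested genes. A gene was called, here and below, when edgeR's quasi-likelihood test gave an adjusted p under 0.01 (Benjamini-Hochberg over all tested genes). In bulk tissue, fewer cells of a type and less RNA per cell cannot be told apart.

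Ugt2a3, whose human counterpart conjugates bile acids, fell to 0.493 of its chow level. It ranged from 211 to 263 CPM in chow mice with a median of 242. In WTD mice the lowest value was 84.2 CPM, the median 108 and the highest 237. The highest was mouse 15, and without it the WTD mice ended at 139 CPM, below all chow mice. The log2 fold change was -1.02 (SE 0.12, adjusted p = 7.1e-10).

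The Ugt2b enzymes carry most of the family's transcripts, and of the 5 with high counts (Ugt2b1, Ugt2b5, Ugt2b34, Ugt2b35 and Ugt2b36) 4 fell. Ugt2b5 had 468 to 711 CPM in chow mice (median 595) and 264 to 507 in WTD mice (median 360). Again WTD mouse 15 was the highest, and the other 15 WTD mice, with at most 395 CPM, lay below every chow mouse. Its log2 fold change was -0.725 (SE 0.07, adjusted p = 4.7e-12).

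Ugt2b36 had 505 to 718 CPM on chow (median 619) and 307 to 560 on WTD (median 377), with WTD mouse 15 as the 1 mouse above 431 CPM. It fell by 0.69 on the log2 scale (SE 0.08, adjusted p = 1.0e-10). Ugt2b34 fell least among the called members. Its chow values ran from 330 to 497 CPM (median 365) and its WTD values from 191 to 374 (median 274), and the log2 fold change was -0.45 (SE 0.07, adjusted p = 1.5e-06). Ugt2b1 varied more between mice on both diets, with 113 to 282 CPM on chow (median 213) and 66.2 to 194 on WTD (median 112). The groups overlapped, as 8 of 16 WTD mice lay below the lowest chow mouse, which was chow mouse 2. Its log2 fold change was -0.85 (SE 0.13, adjusted p = 2.0e-07), and -0.92 without chow mouse 2.

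Ugt2b37 was a weakly expressed member. It had 58 to 178 counts in single chow mice (2.72 to 11.4 CPM, median 4.36) and 0 to 4.00 CPM on WTD (median 0.86), where 4 of 16 mice had no count. Of these 4 libraries, mice 9, 10 and 16 missed 40.5%, 46.1% and 21.7% of weak genes. The log2 fold change of Ugt2b37 was -2.05 (SE 0.51, adjusted p = 8.4e-04), and -1.60 (adjusted p = 7.1e-04) without the 8 libraries missing over 20% of weak genes. Its SE was the largest among the tested members.

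Ugt2b38 was close to absent. Chow mice 5, 9 and 10 had 80, 38 and 20 counts and the other 7 chow mice between 1 and 5, whereas 7 of 16 WTD mice had 0. It was not tested with the filter on low counts. Without the filter its log2 fold change was -3.49 (adjusted p = 0.0026), and most of its chow counts were from the 3 mice named.

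Both Ugt3 genes fell to a similar degree. Ugt3a1 had 36.1 to 66.4 CPM on chow (median 48.2) and 17.3 to 47.8 on WTD (median 23.1), and its log2 fold change was -0.99 (SE 0.13, adjusted p = 6.9e-09). Its more abundant neighbour Ugt3a2 had 315 to 445 CPM on chow (median 358) and 145 to 316 on WTD (median 184), with a log2 fold change of -0.95 (SE 0.10, adjusted p = 1.1e-11). In both genes the highest WTD mouse was mouse 15, and all other WTD mice lay below every chow mouse.

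Ugt2b35 did not follow Ugt2b36, from which it is separated by 53 kb. It had 92.7 to 196 CPM on chow (median 126) and 116 to 185 on WTD (median 154), so that the WTD range lay inside the chow range. The log2 fold change was 0.15 (SE 0.13, adjusted p = 0.39).  The log2 ratio of Ugt2b35 to Ugt2b36 within a mouse was -2.22 ± 0.30 on chow (SD, n = 10) and -1.33 ± 0.26 on WTD (SD, n = 16). The ratio was higher on WTD by 0.89 in a two-sided permutation test (p = 2e-05, the smallest that 100000 permutations can give, 6e-05 when adjusted over the 3 comparisons). This ratio was chosen after the values had been seen. The share of Ugt2b35 in the summed CPM per kb of the family had medians of 3.38% (chow) and 7.17% (WTD).

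In 7 of the 9 tested members at least 15 of the 16 WTD mice lay below every chow mouse, and over all tested genes 4.85% showed this. For none of the 9 members were the groups fully apart, and the WTD mouse within the chow range was mouse 15 in 6 of these 7 and mouse 8 in Ugt2b37. Without WTD mouse 15, and also without chow mouse 2, the same number of 8 members was called.

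**Figure D2:**
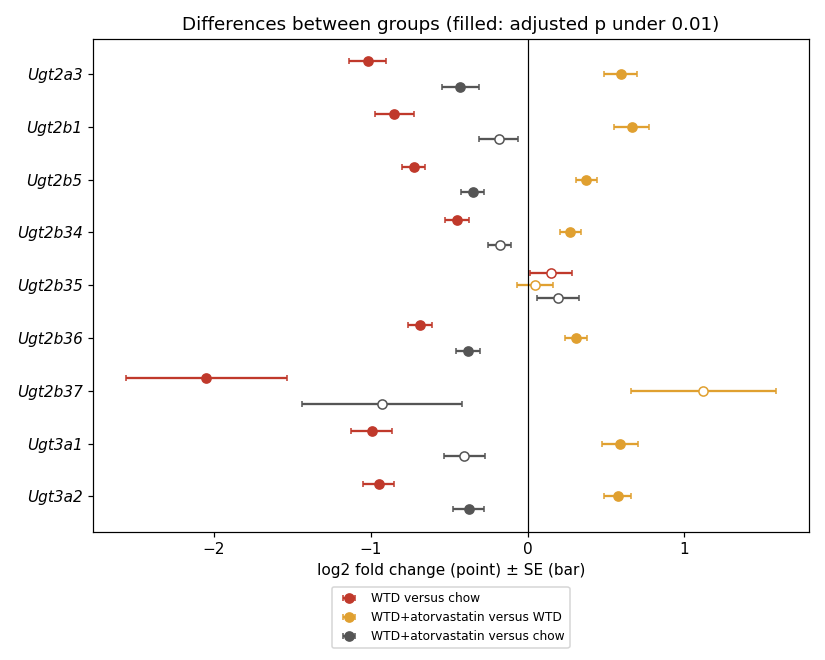
Points are log2 fold changes of the 9 tested members and bars are ± 1 SE, for 3 comparisons given by colour, and filled points have an adjusted p under 0.01. Points of WTD versus chow are left of 0 except Ugt2b35 (0.15), those of WTD+atorvastatin versus WTD are right of 0, and those of WTD+atorvastatin versus chow lie between them for the 8 members other than Ugt2b35.

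The second comparison asks how mice on WTD with atorvastatin differed from those on WTD alone. Of the 9 tested members 7 were called, all higher with atorvastatin, while over all tested genes 4.84% were called as higher. The number of all genes called as higher depends on the scaling. It was 754 beside 352 lower here and 582 beside 479 with RLE normalization. The median log2 fold change of the 9 members was 0.57, beside 0.00 over all genes. This comparison and the first share the WTD mice, so the 2 sets of values are not independent.

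Ugt2b1 had the largest difference among the called members. WTD+atorvastatin mice had 152 to 217 CPM (median 182), and 16 of 16 lay above the WTD median of 112. The log2 fold change was 0.66 (SE 0.11, adjusted p = 6.2e-05). Within this treated group Ugt2b1 varied little, with a coefficient of variation of 11.5%, against 29.4% on WTD and 24.6% on chow.

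Ugt2a3 ranged from 114 to 237 CPM in treated mice with a median of 191. Its log2 fold change was 0.59 (SE 0.11, adjusted p = 1.3e-04). The treated mice fell into a lower and a higher set, as mice 1, 2, 3, 4 and 7 had 114 to 139 CPM, where the WTD mice other than mouse 15 reached 139, and the others 158 to 237 CPM. Ugt3a2 showed the same mice at the low end. It had 195 to 221 CPM in mice 1, 2, 3, 4 and 7 and 251 to 347 in the other 11. Its log2 fold change was 0.57 (SE 0.09, adjusted p = 1.8e-05). Ugt3a1 had 19.9 to 47.1 CPM (median 37.5) and a log2 fold change of 0.59 (SE 0.12, adjusted p = 3.0e-04), and 14 of 16 treated mice lay above the WTD median.

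The differences of the abundant Ugt2b members were smaller. Ugt2b5 had 385 to 558 CPM with atorvastatin (median 466.4), a log2 fold change of 0.375 (SE 0.065, adjusted p = 6.6e-05). Ugt2b36 had 383 to 576 CPM (median 491), a log2 fold change of 0.31 (SE 0.07, adjusted p = 0.0011). In each of these genes 16 of 16 treated mice lay above the WTD median. For Ugt2b34, with 273 to 386 CPM (median 335), this was 15 of 16 and the log2 fold change was 0.27 (SE 0.07, adjusted p = 0.0031).

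Ugt2b37 and Ugt2b35 were not called. Ugt2b37 had 0.572 to 7.07 CPM in treated mice (median 2.92), with a log2 fold change of 1.12 (SE 0.46, adjusted p = 0.11). Ugt2b38 had no count in 5 of 16 treated mice and at most 0.701 CPM. Ugt2b35 had a log2 fold change of 0.05 (SE 0.12, adjusted p = 0.88), and its sign turned with limma-voom (-0.15) and without treated mouse 3 (-0.015), the highest of the group. Its range was the widest of the 3 groups, from 102 to 256 CPM with a median of 144.

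The spread of Ugt2b35 within the treated group ran opposite to that of Ugt2a3. The 5 mice with the lowest Ugt2a3 (1, 2, 3, 4 and 7) had the 5 highest Ugt2b35 values, 204 to 256 CPM, above all WTD mice. The other 11 treated mice had 102 to 155 CPM. In Ugt2b1 the same 5 mice had 152 to 204 CPM and in Ugt2b5 424 to 558 CPM, which overlaps the 152 to 217 and 385 to 536 CPM of the other treated mice. These sets were seen in the values, so no test was made between them, and 5 of the 6 treated mice that lay nearer to the WTD median over all other genes are these mice. The log2 ratio of Ugt2b35 to Ugt2b36 was -1.65 ± 0.55 with atorvastatin (SD, n = 16) and differed from that on WTD by -0.31 (two-sided permutation test, p = 0.049, adjusted p = 0.049). This p was under 0.05 in 8 of 32 fits that left out 1 mouse, so the difference was not stable. The part of these mice in the differences between the groups was not tested.

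**Figure D3:**
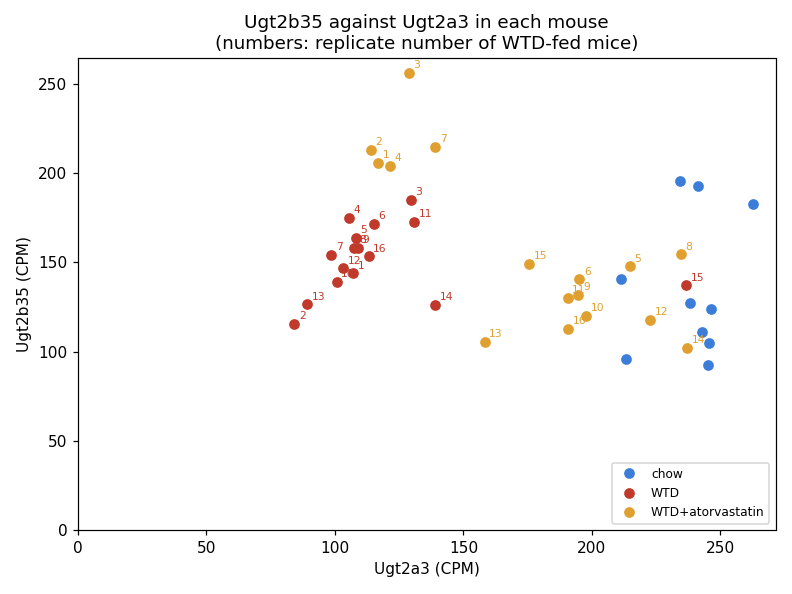
Each point is 1 mouse, with Ugt2a3 in CPM on the horizontal and Ugt2b35 in CPM on the vertical axis and replicate numbers beside WTD-fed mice. Treated mice 1, 2, 3, 4 and 7 lie at the upper left (Ugt2a3 114 to 139, Ugt2b35 204 to 256 CPM), the other treated mice and WTD mouse 15 lie towards the chow mice on the right.

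Without WTD mouse 15 the number of called members was again 7, and the log2 fold changes were 0.69 for Ugt2a3 and Ugt3a1, 0.73 for Ugt2b1 and 0.64 for Ugt3a2. Without the 8 libraries with over 20% missing weak genes, Ugt2b36 was no longer called (adjusted p = 0.012).

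The third comparison sets WTD+atorvastatin beside chow and asks what difference remained. Of the 9 tested members 4 were called, all lower than on chow, and over all tested genes 10.7% were called as lower. These were Ugt2a3 (log2 fold change -0.43, SE 0.12, adjusted p = 0.0041), Ugt2b5 (-0.35, SE 0.07, adjusted p = 1.2e-04), Ugt2b36 (-0.38, SE 0.08, adjusted p = 8.5e-05) and Ugt3a2 (-0.375, SE 0.10, adjusted p = 0.0020). In each of the 4 genes 16 of 16 treated mice lay below the chow median, and 9 to 12 of them below every chow mouse. Ugt3a1 missed the threshold by little (-0.40, adjusted p = 0.012). It was called in 8 of 12 other settings. These include the looser threshold (adjusted p under 0.05), which kept the same fit and the same adjusted p of 0.012. Without WTD mouse 15 Ugt3a1 passed the threshold of 0.01 (adjusted p = 0.0038). Ugt2b1 (-0.185, SE 0.13, adjusted p = 0.27), Ugt2b34 (-0.18, SE 0.07, adjusted p = 0.059), Ugt2b35 (0.20, SE 0.13, adjusted p = 0.27) and Ugt2b37 (-0.93, SE 0.51, adjusted p = 0.16) were not called, and a missed threshold does not show equal levels. The sum of the family was 963 to 1294 CPM per kb on chow (median 1080), 490 to 980 on WTD (median 646) and 738 to 997 with atorvastatin (median 894).

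**Figure D4:**
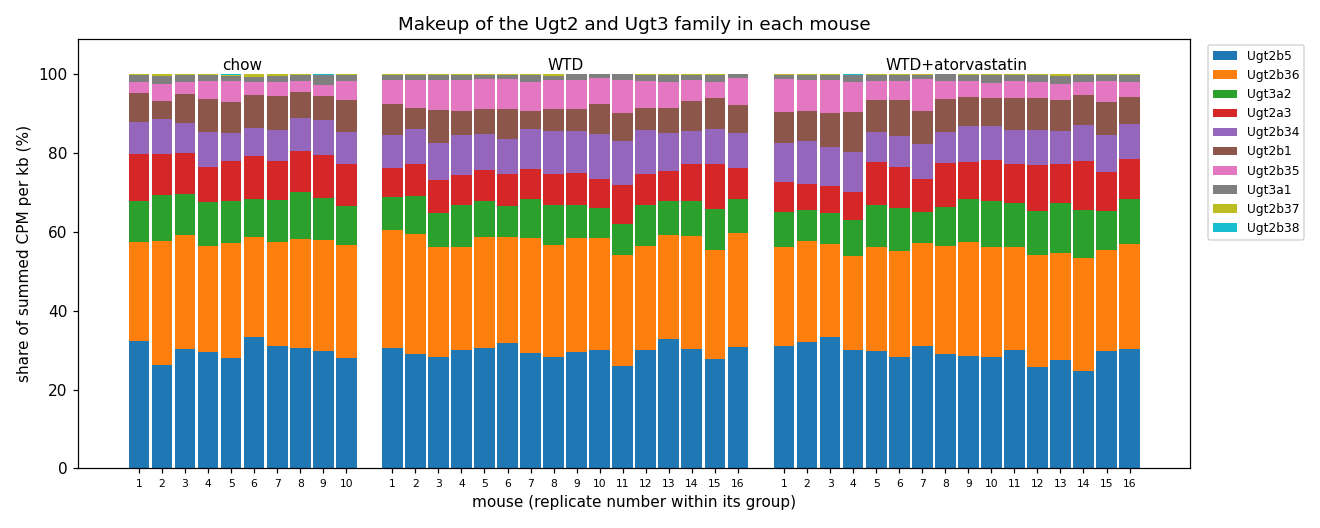
Each bar is 1 mouse and its parts are the percent that each gene takes of the summed CPM per kb of the 10 genes. Ugt2b5 and Ugt2b36 fill over 53% of each bar, and the part of Ugt2b35 has group medians of 3.38% (chow), 7.17% (WTD) and 4.65% (WTD+atorvastatin).

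When the counts of near-identical members were summed, the results were alike. The sum of Ugt2b5, Ugt2b37 and Ugt2b38 had log2 fold changes of -0.73 (WTD versus chow), 0.38 (WTD+atorvastatin versus WTD) and -0.36 (WTD+atorvastatin versus chow), and the sum of Ugt3a1 and Ugt3a2 -0.95, 0.58 and -0.38. All 6 were called. Each sum largely repeats 1 gene, as the chow medians were 595 CPM for Ugt2b5 against 4.36 for Ugt2b37, and 358 for Ugt3a2 against 48.2 for Ugt3a1. Read pairs left out before counting are not in the sums, so the sums cannot show how many were lost.

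Within a group, the same mice tended to be at the ends of several members. WTD mouse 15 was the highest WTD mouse in 7 of the 9 tested members, and WTD mouse 2 was among the 3 lowest in 8 and the lowest in 6. On chow, mouse 4 was among the 3 highest in 7 members and mouse 8 among the 3 lowest in 7. Among treated mice, mouse 1 was among the 3 lowest in 6.

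For called members the gene with the most similar profile over the 42 mice was searched among 13635 other genes, by the root mean square difference of centred log2 CPM. For Ugt2a3 this was Pipox (difference 0.145), for Ugt2b36 Sord (0.123), for Ugt2b34 Lamp2 (0.162), for Ugt3a2 Proz (0.142), for Ugt3a1 Sec14l2 (0.213), for Ugt2b1 Aldh7a1 (0.274) and for Ugt2b37 A230072C01Rik (1.11). The member nearest to Ugt2b1 was Ugt2b5 (0.265), which was nearer to it than any gene outside the family.

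The other UGT genes could mostly not be compared. Of 12 such genes, 9 had 0 counts in every mouse, among them Ugt1a1, the bilirubin-conjugating enzyme. The Ugt1a genes overlap each other, and read pairs that fit more than 1 gene were not counted, so these zeros do not show absent expression. Only Ugt8a, which makes galactosylceramide, was tested, and it was higher on WTD, with a median of 1.43 CPM against 0 on chow (log2 fold change 2.85, SE 0.845, adjusted p = 0.0048). It is a weak gene, with 34 counts over all 10 chow mice together, and 3 chow libraries missed over 20% of weak genes. Its difference without these libraries is not given.

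Of 12 genes that supply or use UDP-glucuronic acid, 3 rose and 5 fell on WTD, with a median log2 fold change of -0.10. Over all tested genes 17.5% were called higher and 16.0% lower on WTD. Ugp2, the enzyme that makes UDP-glucose, rose from a median of 261 CPM on chow to 394 on WTD (log2 fold change 0.61, adjusted p = 1.7e-07) and to 512 with atorvastatin (0.34 over WTD, adjusted p = 0.0020). Ugdh, which oxidises UDP-glucose to UDP-glucuronic acid, had medians of 159, 158 and 152 CPM in the 3 groups and a log2 fold change of 0.00 on WTD (SE 0.14, adjusted p = 1.0). Gusb, the lysosomal enzyme that cleaves glucuronides, rose from 26.9 to 87.6 CPM (log2 fold change 1.69, adjusted p = 1.3e-18), while Rgn, which acts in the use of glucuronic acid for vitamin C, fell (-0.91, adjusted p = 9.6e-10). With atorvastatin 3 of the 12 were called higher than on WTD and 0 lower (all genes 4.84% and 2.26%). The 3 were Ugp2, Rgn (0.40, adjusted p = 0.0030) and Pgm1 (0.28, adjusted p = 0.0039), a phosphoglucomutase.

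Of 8 transporters that move glucuronides, bile acids and other anions, 2 rose and 6 fell on WTD (median -0.48), beside 17.5% and 16.0% of all tested genes. Slc10a1, the bile salt uptake carrier, fell from 549 to 162 CPM in median (log2 fold change -1.55, adjusted p = 2.0e-07), and the uptake carrier Slco1a4 fell by 1.48 (adjusted p = 6.8e-10). With atorvastatin 2 of the 8 were called higher than on WTD and 0 lower (all genes 4.84% and 2.26%). The 2 were Slc10a1 (1.04, adjusted p = 3.3e-04) and Abcc2, the canalicular exporter of glucuronides (0.45, adjusted p = 6.9e-05).

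Of 15 transcription factors known to act on UGT genes, 10 fell and 1 rose on WTD (median -0.44), beside 16.0% and 17.5% of all tested genes. The xenobiotic receptor Nr1i3 (CAR) fell from a median of 551 to 184 CPM (log2 fold change -1.46, adjusted p = 1.3e-08), the bile acid receptor Nr1h4 (FXR) by 0.84 (adjusted p = 3.0e-10) and the estrogen receptor Esr1 by 0.85 (adjusted p = 1.6e-07). With atorvastatin 2 of the 15 were called higher than on WTD and 0 lower (all genes 4.84% and 2.26%). The smallest p was that of Hnf4a, a nuclear receptor of hepatocytes (0.33, adjusted p = 6.4e-04).

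**Figure D5:**
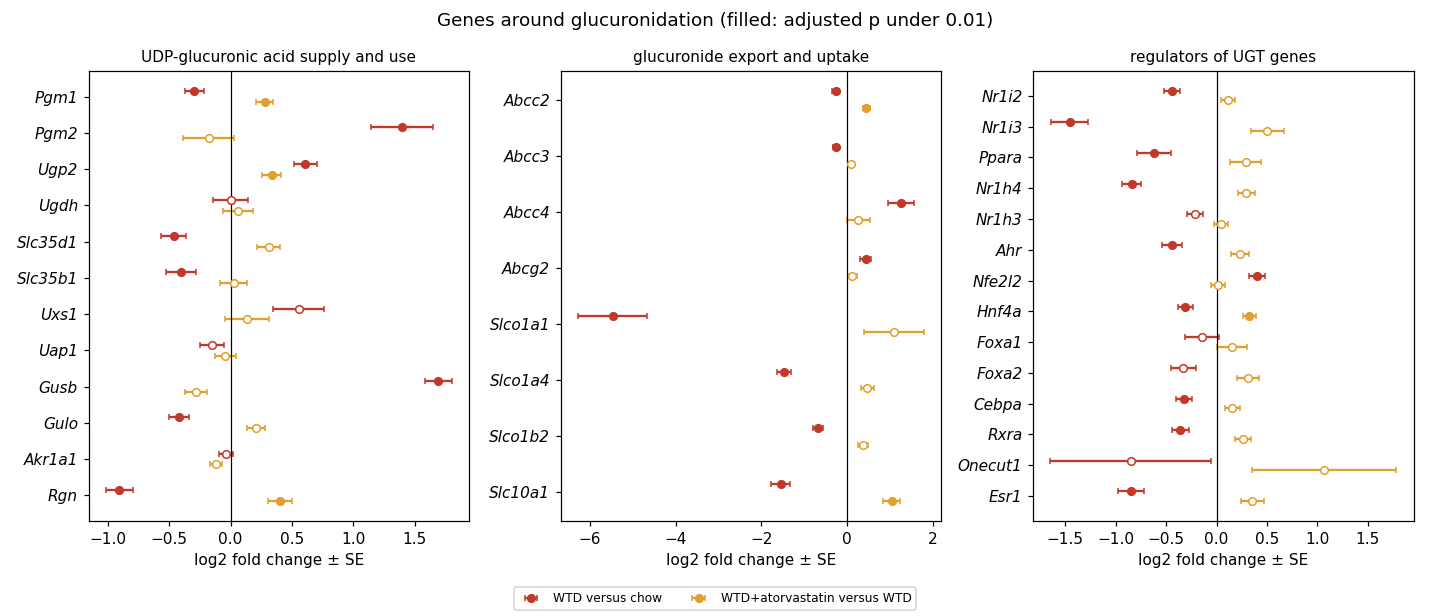
Points are log2 fold changes and bars ± 1 SE for genes named in 3 lists, with WTD versus chow in red and WTD+atorvastatin versus WTD in orange and filled points for an adjusted p under 0.01. In the list of regulators Nr1i3, Nr1h4 and Esr1 are left of 0 in red, and Gusb and Ugp2 are right of 0 in the first list.

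Markers of cell types also differed between the groups, in different directions. All 11 tested hepatocyte markers were called lower on WTD, with a median log2 fold change of -0.67. Over all tested genes 16.0% were called lower and 17.5% higher on WTD. The summed level of these markers was 129000 to 184800 CPM on chow, 65350 to 123400 on WTD and 74690 to 148400 with atorvastatin. With atorvastatin 4 of the 11 were called higher than on WTD, beside 4.84% of all tested genes. The 8 markers of macrophages and Kupffer cells summed to 401 to 630 CPM on chow and to 2223 to 3894 on WTD, where 6 were called higher, and to 1604 to 2630 with atorvastatin. The 8 markers of stellate cells and fibroblasts summed to 397 to 640 CPM on chow, 1078 to 2499 on WTD (5 called higher) and 978 to 2410 with atorvastatin. In both the macrophage and the stellate list 3 markers were called lower with atorvastatin than on WTD and 1 higher. Over all tested genes these shares were 2.26% and 4.84%. Of the 6 cholangiocyte markers all were called higher on WTD, with sums of 77.2 to 156 CPM on chow, 182 to 842 on WTD and 215 to 600 with atorvastatin. For 6 endothelial markers the sums were 227 to 333, 184 to 306 and 212 to 328 CPM, and for 8 markers of T cells and neutrophils 5.95 to 36.3, 26.7 to 51.1 and 18.7 to 48.2 CPM. The endothelial markers were mixed on WTD, with 1 called higher and 2 lower. No marker of these other cell types was at 0 in all mice of a group. Their part in the lower levels of the Ugt genes was not tested.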

How the data were processed

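Liver RNA of 42 mice was measured by strand-specific paired-end RNA sequencing. The deposited values are counts of read pairs per gene, neither normalized nor filtered. The submitters' processing notes name Trimmomatic, STAR 2.5, the build GRCm38, HTSeq 0.6.1p1 and DESeq2. Of all read pairs in the tables, 2.28% on average were in no gene, 5.96% ambiguous and 4.68% aligned to several places, and these were left out of totals and tests. Of 54446 gene identifiers, 54409 were found in the GENCODE vM21 annotation, which gave symbols, positions and lengths.

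Groups came from the labels, and p-values cover the spread between mice. Low genes were removed by filterByExpr with a minimum count of 10 and a minimum total of 15. After TMM scaling, edgeR 4.0.16 (R 4.3.3) fitted its robust quasi-likelihood model to all 42 mice with 3 groups and no covariates. P values were adjusted by Benjamini-Hochberg over 15574 genes and called under 0.01. Log2 CPM used a prior count of 2. The within-mouse ratio was tested by permutation in scipy 1.17.1. In a simulation of WTD against chow with 15307 genes, the test called 172 of 200 genes given a log2 change of 1, and 0 of the others. The 200 genes were drawn from genes with high counts, and libraries missing many weak genes were not simulated. The result therefore does not cover weak genes such as Ugt2b37, or smaller changes.

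Members and gene lists were chosen with earlier results of these data known. All 10 members are named, and of each list the genes with the smallest p per comparison, at most 3 in each. Ugdh, Alb, Trf and Ugt1a1 lie outside this rule and were chosen after their values were seen. Some results that the rule would name are not reported here. The alternatives were other scaling (RLE or upper quartile), other filters (none, or 10 counts in every mouse), a fit that is not robust, other thresholds (adjusted p under 0.05, or a log2 fold change of at least 1), only the 2 groups compared, leaving out the 8 libraries missing over 20% of weak genes, the 20 most abundant genes or each mouse in turn, limma-voom (limma 3.58.1) with sample quality weights, DESeq2 1.42.0, and the longest transcript as length. Summing members with at least 90% coding identity was chosen after seeing the data, in place of a sum by protein identity.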

Additional observations from a re-analysis of the deposited data

Results flagged for a closer look

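In 3 members a chow mouse stood apart from the other 9 by Dixon's test, which was applied to the 10 members in the chow group and flags about 1 in 20 groups by chance. Ugt2b38 reached 4.04 CPM in chow mouse 5, and the gap to the next mouse was 0.567 of the whole range. That library missed 46.3% of weak genes. Ugt2b34 reached 497 CPM (gap 0.532) and Ugt3a2 445 CPM (gap 0.547), both in chow mouse 4, which was among the 3 highest chow mice in 7 of 9 tested members.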

How the results depend on the processing

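The counts of called members (8, 7 and 4 for WTD versus chow, WTD+atorvastatin versus WTD and WTD+atorvastatin versus chow) were within 1.5 times under all alternatives but 1. With a log2 fold change of at least 1 required, edgeR called 2, 0 and 0 members, beside 8, 8 and 6 with an unadjusted p under 0.05. The share of all tested genes with such an unadjusted p is not given, so the 8, 8 and 6 have no background to be read against. Leaving out each mouse in turn gave 8 in every fit, 7 in every fit, and 4 to 5. The difference of Ugt2b35 between WTD+atorvastatin and WTD, not called at 0.05, was reversed with limma-voom (-0.15) and without WTD+atorvastatin mouse 3 (-0.015), and leaving out single mice gave -0.015 to 0.08; the cause was not tested. Ugt2b37 (log2 fold change 1.56, WTD+atorvastatin versus WTD) and Ugt2b34 (-0.22, WTD+atorvastatin versus chow) were called by limma-voom alone. Over all members, 307 of 336 values from other settings and 1125 of 1134 from fits without 1 mouse kept direction and call. Over all genes, WTD+atorvastatin versus WTD gave 1106 calls, but 3145 with limma-voom, 2021 at an adjusted p under 0.05 and 100 with a log2 fold change of at least 1, which left 2151 of 5224 for WTD versus chow and 1288 of 3893 for WTD+atorvastatin versus chow. Its split of 754 higher and 352 lower became 706 and 689 with DESeq2, 719 and 642 with the 2 groups alone, and 645 and 515 with 10 counts in every mouse. With the longest transcript as length, the median share of Ugt3a2 in the family was 13.3% in place of 10.6% on chow.

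Depth limits Ugt2b37 (median 52 counts per mouse) and Ugt2b38 (median 1), where a count of 0 allows up to 3 counts. No paired analysis was possible because the mouse numbers only name separate animals, given in accession order.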
